A study of Homo sapiens with 24 samples.

Results

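This account follows 10 heat shock chaperone genes in a human lymphoma line treated with nucleic acids directed at MYC: HSP90AB1, HSP90AA1, AHSA1, FKBP4, CHORDC1, HSPA8, HSPH1, DNAJB1, BAG3 and HSPD1. They were taken by symbol from both deposited tables, where they are 10 of 61541 rows at 48 h and 10 of 19836 rows at 72 h. All 10 passed the filter on low values in both tables. The set was named for cytosolic chaperones. HSPD1 encodes HSP60, the chaperonin of the mitochondrial matrix, and does not belong to the cytosol by its known site, so it is described last and apart.

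The cells were given as U2932, an established line of diffuse large B-cell lymphoma, with bone marrow as the labelled source. The reagent PNA2 was a peptide nucleic acid of the gamma type, in which bases hang from a peptide-like chain in place of sugar and phosphate. Its labelled dose was 8 mM, a unit that is doubtful. The siRNA was given at 500 nM by electroporation, in a larger culture than the wells used for PNA2. At 48 h there were 6 control libraries treated with PBS and labelled wild type, 4 PNA2 libraries and 4 siRNA libraries, the last 2 groups being labelled as MYC knockdowns. At 72 h there were 5 control and 5 PNA2 libraries. No electroporated control is named, so the effects of siRNA and of electroporation cannot be told apart. For the 4 siRNA libraries the line's name ends in another digit in the cell line entry, though not in the treatment text. The labels do not say that replicates were separate cultures, so p-values measure only the spread between these libraries, which may be technical. The extraction text gives 48 h for every library, and the 72 h groups here follow the titles.

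Heat shock chaperones bind unfolded stretches of other proteins and help them to fold, refold or be degraded. HSP70 proteins, with J proteins that load them and exchange factors that unload them, act on new or damaged chains, and pass some of them to HSP90, whose co-chaperones set the pace of its ATP cycle. Many signalling proteins on which lymphoma cells depend are HSP90 clients. Most of these genes are activated by the transcription factor HSF1, which binds heat shock elements, runs of the unit GAA in alternating orientation. MYC is also known to bind promoters of growth-related chaperone genes, HSPD1 among them.

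The promoters of some of these genes hold that element. RefSeq promoters on GRCh38.p14 were at hand for 9 of the 10 genes, all but FKBP4. The 250 bases before each start were searched on both strands for 3 units, that is GAA, any 2 bases, TTC, any 2 bases, GAA. The motif was present in 155 of 35116 promoters, or 0.441%, and in 5 of the 16 promoters of these genes, belonging to HSPA8, HSP90AA1, HSP90AB1, CHORDC1 and HSPD1. The E-box CACGTG, the preferred site of MYC, was present in 6.34% of promoters and in 1 of the 16 promoters of these genes, a promoter of HSPD1. That share is near the one over all promoters. The stretches with the element are printed below on the coding strand, with its letters in capitals, since they are what 5 of the genes have in common beyond their protein products. In CHORDC1 it runs over 5 units and starts 60 bases upstream of the transcript start, and in HSPD1 it runs over 4 units and starts 245 bases upstream. HSP90AB1 holds 2 elements, at 165 and 112 bases upstream of its start at 44247943, and both appear in the longer stretch. Its other listed starts, at 44246194 and 44247101, had no element in the 250 bases before them. HSPA8 also holds 2, at 230 and 55 bases upstream, and HSP90AA1 has 1, at 88 bases upstream. In HSP90AB1, HSP90AA1 and HSPD1 the element lies downstream of another listed start of the gene. That start is at 102139749 for HSP90AA1 and at 197500274 for HSPD1.
CHORDC1, chr11:90223083-90223112, minus strand: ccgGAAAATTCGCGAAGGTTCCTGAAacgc
HSPD1, chr2:197500061-197500090, minus strand: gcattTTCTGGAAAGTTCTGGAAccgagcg
HSP90AA1, chr14:102087111-102087140, minus strand: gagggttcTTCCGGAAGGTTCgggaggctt
HSPA8, chr11:123062345-123062374, minus strand: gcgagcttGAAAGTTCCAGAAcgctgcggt
HSPA8, chr11:123062170-123062199, minus strand: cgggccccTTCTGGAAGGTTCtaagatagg
HSP90AB1, chr6:44247693-44247865, plus strand: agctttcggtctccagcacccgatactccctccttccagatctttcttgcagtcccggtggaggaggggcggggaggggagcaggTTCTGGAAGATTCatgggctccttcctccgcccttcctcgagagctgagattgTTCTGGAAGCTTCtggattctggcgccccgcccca
A match of letters is a description of the sequence. No binding was measured here.

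The 48 h libraries held 11.12 M to 16.17 M adjusted reads and the 72 h libraries 8.22 M to 13.69 M reads. Equal low values placed the 48 h libraries in 2 batches, which the labels do not name and whose kind is not known. Batch A held all 4 siRNA libraries beside 3 controls and 2 PNA2 libraries, and the other 5 libraries formed batch B. The 48 h values below were divided by a library scale and are called scaled values. MYC, the target, stood at 6634 ± 788 (SD, n = 6) in the 48 h controls, 7827 ± 817 (SD, n = 4) in PNA2 and 3851 ± 286 (SD, n = 4) in siRNA. Its log2 change was -0.80 in siRNA (adjusted p = 0.00034), 0.24 in PNA2 at 48 h (adjusted p = 0.0917) and -0.18 in PNA2 at 72 h (adjusted p = 0.794), by limma. MYC was thus not lower in the PNA2 libraries at 48 h, against their label, and they are called the libraries labelled PNA2 throughout. All 7 B cell markers had a median of 10 or more in every group. Of 7 myeloid markers, S100A8, S100A9 and FCGR3A were at 0 in every library, and of 7 T and NK cell markers CD3D and GNLY were. CD8A, the only T and NK cell marker tested at 48 h, was called higher in the libraries labelled PNA2 (2.12 in log2) and in siRNA (2.16). The summed level of that list was 2.52 to 29.2 scaled reads in the 48 h controls, 17.1 to 77.2 in the libraries labelled PNA2 and 13.8 to 24.0 in siRNA. At 72 h it was 8.63 to 47.1 normalized reads in the controls and 33.7 to 63.7 in the libraries labelled PNA2. The myeloid list summed to 7.55 to 23.2 scaled reads over all 48 h libraries and 14.4 to 45.0 normalized reads over all 72 h libraries. A list of 8 stroma and epithelium markers summed to 193 to 476 at 48 h and 127 to 191 at 72 h. Of the 7 B cell markers 1 was called lower and 1 higher in the libraries labelled PNA2 at 48 h, and 5 were called higher in siRNA. The 13 mitochondrially encoded mRNAs took 1.38 to 2.92% of the total in the 48 h controls, 4.3 to 5.78% in the libraries labelled PNA2 and 1.89 to 2.16% in siRNA. At 72 h they took 3.96 to 4.63% in controls and 6.15 to 8.3% in the libraries labelled PNA2. Their part in the results below was not tested.

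The 10 genes covered a wide range of levels. Per kilobase of exon, in the 72 h controls, HSP90AB1 led with 10332 ± 289 normalized reads (SD, n = 5 here and below), followed by HSP90AA1 with 4121 ± 213. The constitutive HSP70 gene HSPA8 stood at 2337 ± 91.8 per kilobase and HSPD1 at 1968 ± 182. The ranges of these neighbours, HSPA8 and HSPD1, overlapped, so their order is not set by these libraries. AHSA1 followed with 709.7 ± 41.3 per kilobase, then FKBP4 with 287 ± 9.16, DNAJB1 with 243 ± 24.7 and HSPH1 with 134 ± 7.67. BAG3, at 65.7 ± 11.5 per kilobase, and CHORDC1, at 51.5 ± 4.94, were lowest and overlapped. In the 72 h libraries labelled PNA2 the order of the means was the same. CHORDC1 then stood at 31.5 ± 3.78 per kilobase, with no overlap with BAG3 at 85.4 ± 18.6.

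At 48 h the libraries labelled PNA2 held fewer chaperone transcripts than the PBS controls. Of the 10 genes 6 fell and 0 rose by limma with Benjamini-Hochberg adjustment over all genes at 0.05. Of all 14136 tested genes 8.14% were called lower, 8.45% higher and 16.6% either way. The 6 were CHORDC1, HSPH1, AHSA1, HSP90AB1, FKBP4 and HSPA8. The median log2 change of the 10 genes was -0.35, against 0.0036 over all genes. In 4 of the 10 every library labelled PNA2 lay below every control, as in 4.74% of all genes. In these bulk libraries, a loss in every cell and a loss of the cells with most transcript cannot be told apart. The plot of 48 h values shows each library.

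**Figure D1:**
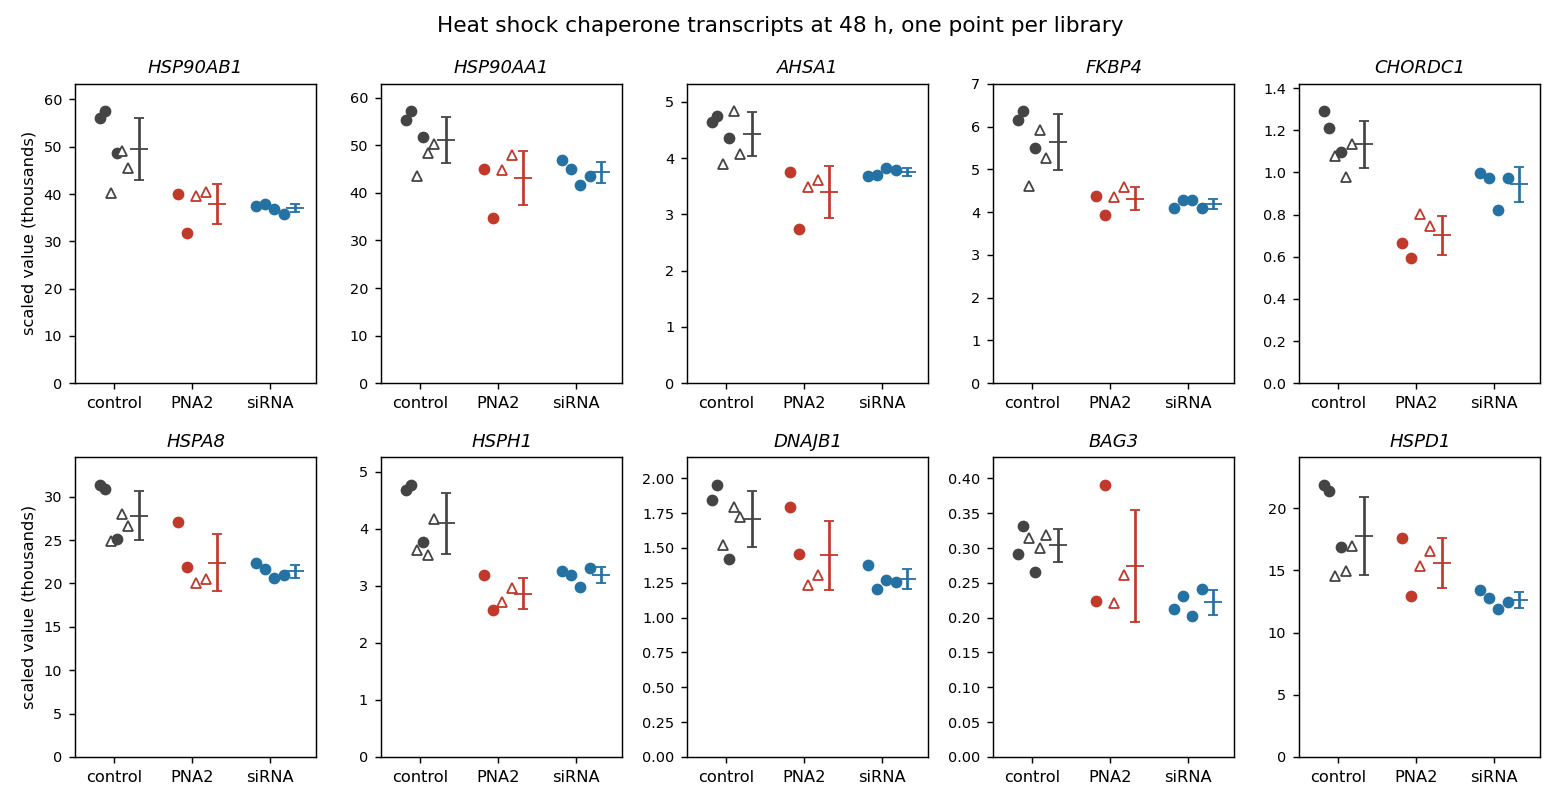
Scaled values (in units of 1000, linear axis from 0) of the 10 genes in each 48 h library, with filled circles for batch A and open triangles for batch B; bars are the mean ± SD of each group. CHORDC1, HSPH1, AHSA1 and FKBP4 show no overlap between the libraries labelled PNA2 and the controls, and 8 genes show none between siRNA and controls.

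Both HSP90 genes are very abundant. HSP90AB1 (ENSG00000096384, GRCh38 chromosome 6, 44246166 to 44253888, plus strand) encodes the constitutive cytosolic HSP90. Its scaled value was 40079, 31712, 39491 and 40380.0 in replicates 1 to 4 labelled PNA2, against a lowest value of 40174, a median of 48888 and a highest value of 57593 in the 6 controls. Replicate 2 stood well below the other 3, of which replicate 4 reached above the lowest control. HSP90AB1 fell, at -0.38 (SE 0.113, adjusted p = 0.031) in log2. Within batch A the change was -0.60 (adjusted p = 0.0214) and within batch B -0.17 (adjusted p = 0.5). The call was lost without control 1 (adjusted p = 0.0704), control 2 (0.0687) or unnumbered control 6 (0.0502).

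HSP90AA1 (ENSG00000080824, chromosome 14, 102080738 to 102139699, minus strand) encodes the stress-inducible cytosolic HSP90. It stood at 45087, 34812, 44896 and 47854 in the libraries labelled PNA2, against a lowest value of 43560.2, a median of 51081 and a highest value of 57231 in the controls. Again replicate 2 was the lowest, and the other 3 lay within the range of the controls. The log2 change of -0.25 (SE 0.113, adjusted p = 0.142) did not pass. It was -0.47 within batch A (adjusted p = 0.0478) and -0.030 within batch B (adjusted p = 0.919). Under quantile normalization it was -0.73 (adjusted p = 0.000157).

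All 3 HSP90 co-chaperones of the set fell, each without overlap. CHORDC1 (ENSG00000110172, chromosome 11, 90201160 to 90223364, minus strand) encodes CHP-1, or morgana, a CHORD-domain partner of HSP90. It stood at 665, 593, 803 and 746 in the libraries labelled PNA2, against a lowest value of 978, a median of 1118 and a highest value of 1292 in the controls. It showed the largest change of the 10, -0.69 (SE 0.0957, adjusted p = 0.000389), so that CHORDC1 fell by 38.2%. The change was -0.93 within batch A and -0.46 within batch B, and it stayed past the threshold in all 21 alternatives run.

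AHSA1 (ENSG00000100591, chromosome 14, 77457870 to 77469474, plus strand) encodes AHA1, the activator of the HSP90 ATPase. Its values were 3753, 2734, 3486 and 3619 in the libraries labelled PNA2 and 3899 to 4841 in the 6 controls. All 4 lay below every control, replicate 2 furthest. The log2 change was -0.39 (SE 0.0882, adjusted p = 0.00889). It was -0.52 within batch A (adjusted p = 0.0211) and -0.26 within batch B (adjusted p = 0.159).

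FKBP4 (ENSG00000004478, chromosome 12, 2794953 to 2805423, plus strand) encodes FKBP52, a peptidyl-prolyl isomerase that joins HSP90 on steroid receptors. It stood at 4385, 3941, 4358 and 4591 in the libraries labelled PNA2 and at 4608 to 6370.4 in the controls. No library labelled PNA2 reached the lowest control. Its log2 change was -0.38 (SE 0.0813, adjusted p = 0.00636), with -0.53 within batch A (adjusted p = 0.00737) and -0.23 within batch B (adjusted p = 0.232).

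In the HSP70 system the fall was in HSPA8 and its exchange factor HSPH1. HSPA8 (ENSG00000109971, chromosome 11, 123057489 to 123063230, minus strand) encodes HSC70, the constitutive HSP70, and the gene carries snoRNA genes. Its scaled value was 27142, 21857, 20020.1 and 20469.7 in the libraries labelled PNA2, against a lowest value of 24880.1, a median of 27304 and a highest value of 31394 in the controls. Replicates 2 to 4 lay below every control and replicate 1 within their range. HSPA8 fell, at -0.32 (SE 0.0911, adjusted p = 0.0271) in log2. Within batch A the change was -0.25 (adjusted p = 0.214) and within batch B -0.39 (adjusted p = 0.0668). The call was lost without any one of PNA2 replicates 3 and 4, controls 1 and 2 and unnumbered control 7, with adjusted p from 0.0513 to 0.0767.

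HSPH1 (ENSG00000120694, chromosome 13, 31134974 to 31162388, minus strand) encodes HSP105, an HSP110 protein that frees HSP70 of ADP. It stood at 3197, 2581, 2719 and 2973 in the libraries labelled PNA2, against a lowest value of 3544, a median of 3972 and a highest value of 4779 in the controls. Every library labelled PNA2 lay below every control. The log2 change was -0.51 (SE 0.0858, adjusted p = 0.00153), the second in size. It was -0.61 within batch A and -0.41 within batch B, both past the threshold.

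DNAJB1 and BAG3 did not pass. DNAJB1 (ENSG00000132002, chromosome 19, 14514770 to 14529770, minus strand) encodes HSP40, a J protein that stimulates the HSP70 ATPase. It stood at 1793, 1455, 1232 and 1302 in the libraries labelled PNA2 and at 1422 to 1954 in the controls, with replicate 1 high among the controls and replicates 3 and 4 below them all. Its log2 change was -0.25 (SE 0.097, adjusted p = 0.0914), and without PNA2 replicate 1 it was -0.34 (adjusted p = 0.0194). It also passed without control 4 (-0.32, adjusted p = 0.0146) and within batch B (-0.40, adjusted p = 0.0399).

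BAG3 (ENSG00000151929, chromosome 10, 119651370 to 119677819, plus strand) encodes an HSP70 exchange factor that directs clients to autophagy. Its values were 224, 391, 221 and 261 in the libraries labelled PNA2 and 266 to 332 in the controls. Replicate 2, the lowest of all 14 libraries for 6 of the 10 genes, was the highest of all for BAG3. The log2 change was -0.19 (SE 0.136, adjusted p = 0.367), and -0.38 (adjusted p = 0.0103) without that replicate. Without rescaling it was 0.0078, and within batch A 0.0041, so the direction is not set.

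HSPD1 (ENSG00000144381, chromosome 2, 197486581 to 197516737, minus strand), the mitochondrial chaperonin, stood at 17608, 12919, 15393 and 16529 in the libraries labelled PNA2, against a lowest value of 14594, a median of 16897 and a highest value of 21905 in the controls. Replicate 2 alone lay below the controls. The log2 change of -0.18 (SE 0.114, adjusted p = 0.295) did not pass. It was -0.40 within batch A (adjusted p = 0.0959) and 0.046 within batch B (adjusted p = 0.815), and 0.015 without rescaling.

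The 48 h calls depend on the library scale. The deposited values were judged to lack depth scaling, so a fit without rescaling leaves library totals in the comparison. Every library labelled PNA2 held at least 14.88 M adjusted reads, and no control exceeded 14.46 M. The siRNA totals, between 12.63 M and 16.17 M, overlapped those of the controls. The share of all reads taken by the 10 genes, given below, was lower in both treatments. That share does not depend on depth, but it depends on the other transcripts in the total and mostly follows the most abundant genes. Its bearing on the calls of single genes was not tested. Without rescaling, the median of all genes moved to 0.19 in the libraries labelled PNA2 and 0.22 in siRNA, and the share of lower among called genes was 7.66% and 3.37%, against 49.1% and 43.9% with it. CHORDC1 alone of the 10 was then called in the libraries labelled PNA2, and 0 were called in siRNA, where the median of the 10 was -0.24 (-0.16 in the libraries labelled PNA2).

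In the siRNA libraries at 48 h, of the same 10 genes 7 fell and 0 rose, against 7.56% of all genes called lower, 9.68% higher and 17.2% either way. The 7 were HSPD1, DNAJB1, BAG3, HSPA8, FKBP4, HSP90AB1 and HSPH1, and the median of the 10 was -0.46, against 0.0084 over all genes. In 8 of the 10 genes, all but HSP90AA1 and CHORDC1, the siRNA libraries lay below every control, as in 6.39% of all genes. Both comparisons use the same 6 controls and are not independent of each other. The siRNA libraries were in batch A alone. Overlap at 48 h was read from scaled values without a batch term, so differences between batches can enter it.

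HSPD1 showed the largest change in siRNA. Its scaled value was 13417, 12765, 11883 and 12496 in siRNA replicates 1 to 4, all below the lowest control of 14594. The log2 change was -0.57 (SE 0.127, adjusted p = 0.00726), and -0.66 against the 3 controls of batch A (adjusted p = 0.00811). HSPD1 overlaps its partner gene HSPE1 on the opposite strand by 281 bases of exon, and no source used here gives the strand setting of the read counting. HSPE1, the co-chaperonin HSP10, fell by 0.55 (adjusted p = 0.0121).

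All 4 genes of the HSP70 system fell in siRNA. DNAJB1 stood at 1375, 1203, 1267 and 1255, below all controls, with a log2 change of -0.50 (SE 0.108, adjusted p = 0.00625). BAG3 stood at 213, 232, 202 and 241, also below all controls, with -0.49 (SE 0.151, adjusted p = 0.037). BAG3 was not called against batch A controls alone (-0.41, adjusted p = 0.122), nor without any one of control 1 or 2, unnumbered control 7 or any siRNA replicate (adjusted p from 0.052 to 0.109). HSPA8 stood at 22327, 21627, 20603 and 21006, a change of -0.47 (SE 0.101, adjusted p = 0.00642), and against batch A controls -0.44 (adjusted p = 0.0242). HSPH1 stood at 3260.2, 3194, 2985 and 3318, a change of -0.42 (SE 0.0955, adjusted p = 0.00813), and against batch A controls -0.46 (adjusted p = 0.0144). For both genes the siRNA libraries lay below every control.

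Of the HSP90 group, FKBP4 and HSP90AB1 fell in siRNA. FKBP4 stood at 4099.8, 4288, 4285 and 4098, below all controls, with a log2 change of -0.46 (SE 0.0905, adjusted p = 0.00385). HSP90AB1 stood at 37562, 37866, 36861 and 35859.5, also below all controls, with -0.46 (SE 0.126, adjusted p = 0.0212). That call was lost without control 1 or 2 or any one siRNA replicate, with adjusted p from 0.051 to 0.0856. The other 3 did not pass. AHSA1 stood at 3685, 3707, 3821 and 3793, below every control, with a log2 change of -0.24 (SE 0.0983, adjusted p = 0.109). CHORDC1 stood at 999, 976, 820.5 and 975, of which replicate 1 reached above the lowest control, and its change was -0.26 (SE 0.107, adjusted p = 0.112). Against the controls of batch A the change in CHORDC1 was -0.35 (adjusted p = 0.0275). HSP90AA1 stood at 46949, 45028, 41719 and 43465 with a change of -0.22 (SE 0.126, adjusted p = 0.247), and overlapped the controls.

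Set against each other, the libraries labelled PNA2 and the siRNA libraries differed in 2 of the 10 genes, 1 in each direction, against 12.5% of all genes called lower, 11.4% higher and 23.9% either way. CHORDC1 was lower in the libraries labelled PNA2, at 665, 593, 803 and 746, than in siRNA, at 999, 976, 820.5 and 975, with no overlap, as in 14.3% of all genes in that direction. The log2 difference was -0.44 (SE 0.115, adjusted p = 0.0116). It was not called with the batches aligned on their controls (-0.34, adjusted p = 0.0684). HSPD1 was higher in the libraries labelled PNA2 than in siRNA by 0.39 (SE 0.136, adjusted p = 0.0487), with replicate 2 labelled PNA2 inside the siRNA range. Within batch A the difference in HSPD1 was 0.26 (adjusted p = 0.22), and the call was lost without any one library of either group except PNA2 replicate 2 (adjusted p from 0.0674 to 0.127). For the other 8 genes no difference passed. Their 95% intervals ran from -0.32 to 0.26 for HSP90AA1, from -0.085 to 0.38 for HSPA8 and from -0.044 to 0.65 for BAG3, so differences of that size are not excluded.

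**Figure D2:**
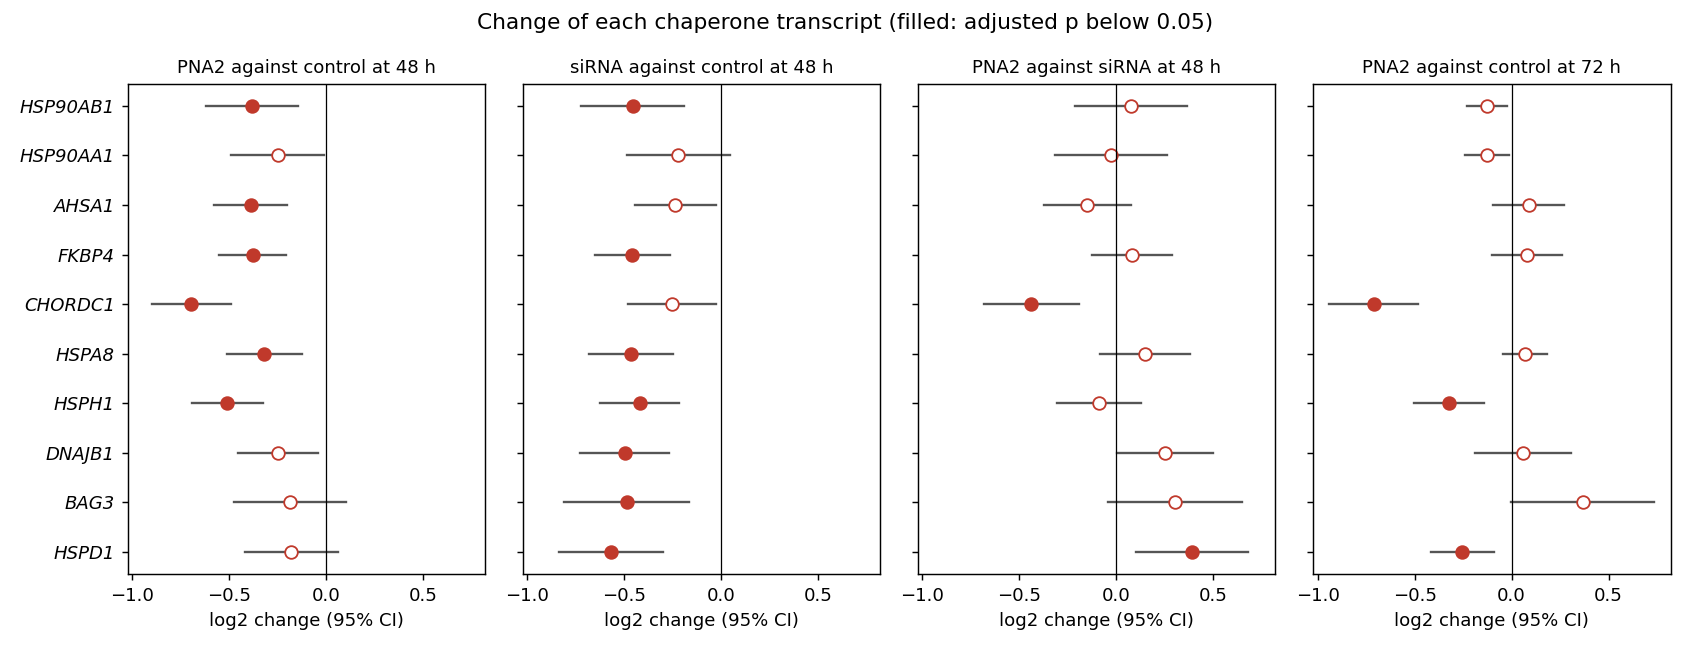
Log2 change of each of the 10 genes in the 4 comparisons (x axis, with lines for the 95% confidence interval); filled points passed an adjusted p of 0.05 by limma. CHORDC1 and HSPH1 were called lower in the libraries labelled PNA2 at both times.

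At 72 h, in libraries with their own controls, 3 of the 10 genes fell in the libraries labelled PNA2 and 0 rose, against 11.7% of all 11985 tested genes called lower, 12.1% higher and 23.8% either way. The 3 were CHORDC1, HSPH1 and HSPD1. The median of the 10 was -0.034, against -0.0054 over all genes. In CHORDC1, HSPH1 and HSP90AB1 every library labelled PNA2 lay below every control, as in 9.18% of all genes. The values are normalized read counts as deposited, and the plot of 72 h values shows each library. The tables for the 2 times were normalized separately, and differences between the times were not tested.

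**Figure D3:**
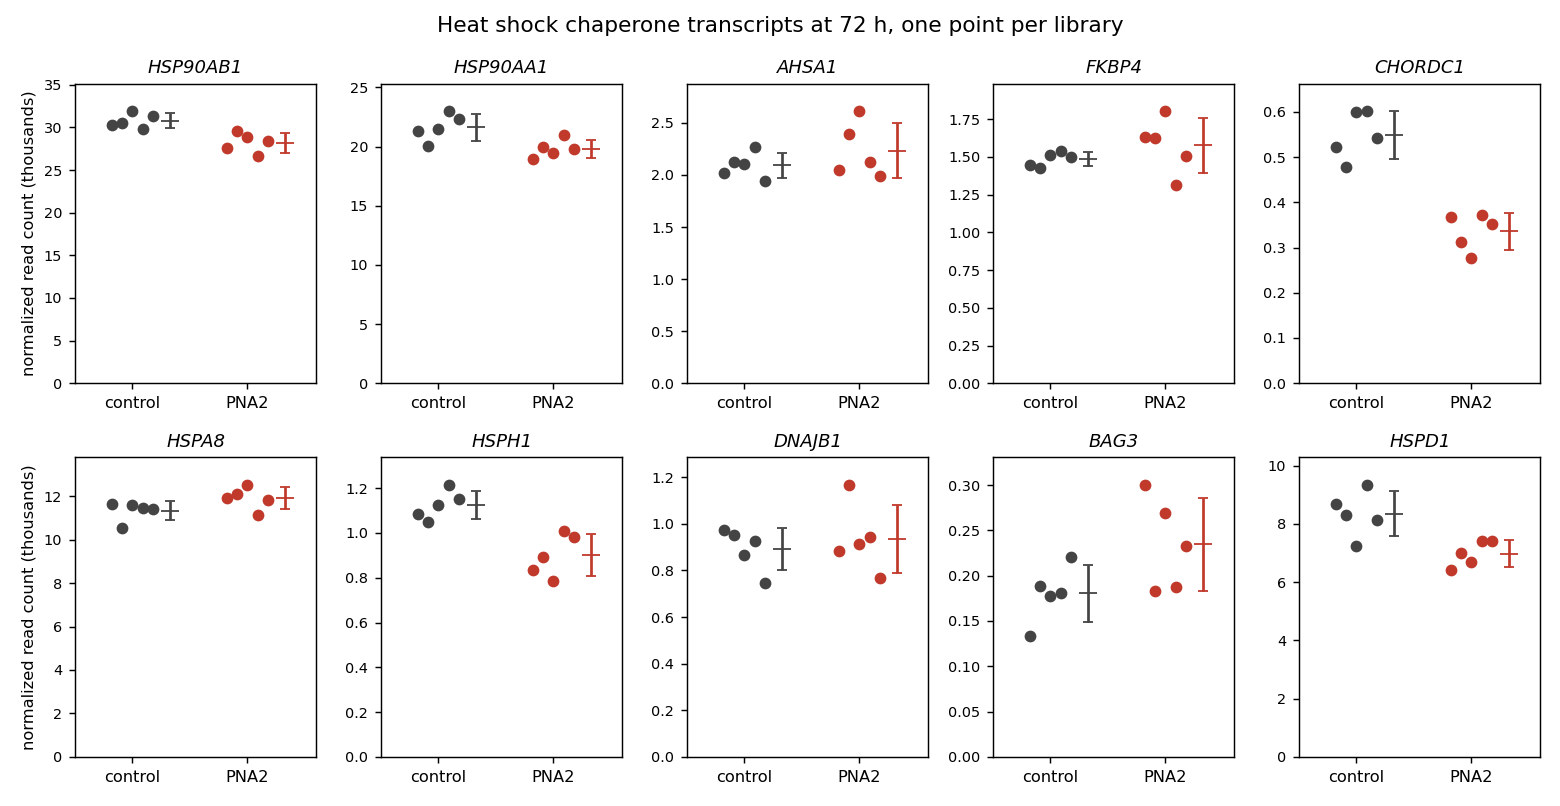
Normalized read counts (in units of 1000, linear axis from 0) of the 10 genes in each 72 h library; bars are the mean ± SD of each group (n = 5). CHORDC1, HSPH1 and HSP90AB1 show no overlap between the 2 groups.

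CHORDC1 stood at 522, 478, 599, 602 and 542 in control replicates 1 to 5 and at 367, 312, 277, 371 and 351 in replicates 1 to 5 labelled PNA2. Every library labelled PNA2 lay below every control. The log2 change was -0.71 (SE 0.105, adjusted p = 0.00139), so that CHORDC1 fell by 38.9%, and the change stayed past the threshold in all 17 alternatives run. HSPH1 stood at 1085, 1047, 1124, 1216 and 1151 in the controls and 835, 895, 786, 1007 and 983 in the libraries labelled PNA2. These groups did not overlap either, and the log2 change was -0.32 (SE 0.0832, adjusted p = 0.0166), past the threshold in the same 17 alternatives.

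HSPD1 stood at 8698, 8322, 7242, 9352 and 8148 in the controls and 6412, 7001, 6682, 7422 and 7417 in the libraries labelled PNA2. The groups overlapped through control 3. HSPD1 fell, at -0.25 (SE 0.0742, adjusted p = 0.0284) in log2. The call was lost without any one of PNA2 replicates 1 and 2 and controls 1, 2, 4 and 5, with adjusted p from 0.0506 to 0.0697.

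The HSP90 genes were slightly lower in mean at 72 h without passing. HSP90AB1 stood at 30305, 30553, 31937, 29781 and 31369 in the controls and 27564, 29519, 28829, 26589 and 28447 in the libraries labelled PNA2. The groups did not overlap, yet the log2 change was only -0.13 (SE 0.0472, adjusted p = 0.0692). It was called by edgeR (-0.14, adjusted p = 0.0445), by DESeq2 (-0.13, adjusted p = 0.0423), after TMM scaling (-0.14, adjusted p = 0.0428) and without PNA2 replicate 3 (-0.14, adjusted p = 0.0463). HSP90AA1 stood at 21279.5, 20051, 21498, 23021 and 22293 in the controls and 18936, 19948, 19436, 20953 and 19762 in the libraries labelled PNA2, with overlap and a change of -0.13 (SE 0.0526, adjusted p = 0.101). Quantile normalization gave -0.58 for HSP90AB1, -0.60 for HSP90AA1 and -0.25 for HSPA8, all 3 called, and this reversed the sign for HSPA8.

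HSPA8, which fell at 48 h, stood at 11642, 10552, 11581, 11459 and 11426 in the 72 h controls and 11914, 12109.9, 12526, 11135 and 11804 in the libraries labelled PNA2. These groups overlapped, and HSPA8 differed by 0.070 (SE 0.052, adjusted p = 0.346) in log2, with a 95% interval of -0.043 to 0.18. AHSA1, at 2023, 2119.9, 2106, 2269 and 1943 in the controls and 2047, 2396, 2615, 2119.7 and 1992 in the libraries labelled PNA2, changed by 0.089 (SE 0.084, adjusted p = 0.464), with an interval of -0.095 to 0.27. FKBP4, at 1449, 1424, 1510.3, 1542 and 1497 and 1634, 1626, 1806, 1314 and 1504 in the same order, changed by 0.080 (SE 0.0825, adjusted p = 0.506), with an interval of -0.10 to 0.26. For all 3 the interval at 72 h lies above the mean change seen at 48 h, but the times were not tested against each other. For HSPA8 this did not hold at every setting, since quantile normalization at 72 h gave -0.25.

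DNAJB1 stood at 972, 951, 865, 927 and 747 in the 72 h controls and 881, 1168, 913, 944 and 766 in the libraries labelled PNA2, with overlap and a change of 0.059 (SE 0.113, adjusted p = 0.73). BAG3 was the most variable of the 10, at 133, 189, 178, 181 and 221 in the controls and 300.5, 183, 269, 188 and 233 in the libraries labelled PNA2. PNA2 replicates 1 and 3 and, less so, 5 lay above every control. The log2 change of 0.37 (SE 0.169, adjusted p = 0.133) did not pass, and its interval was -0.00071 to 0.74.

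As a share of all reads, the 10 genes together took 1.17 ± 0.0993% (SD, n = 6) in the 48 h controls, 0.902 ± 0.06% (n = 4) where labelled PNA2 and 0.941 ± 0.0297% (n = 4) in siRNA. Neither treated range, 0.814 to 0.943% and 0.909 to 0.977%, overlapped that of the controls, 1.04 to 1.3%. At 72 h the share was 0.702 ± 0.0194% in the controls and 0.599 ± 0.0191% in the libraries labelled PNA2 (n = 5 each), again without overlap. Both HSP90 genes alone took 0.718% of all reads in the 48 h controls and 0.47% in the 72 h controls. The pooled share thus mostly follows the most abundant genes and does not describe each of the 10. At 72 h the log2 change was below 0 in 5 of the 10 genes, with a median of -0.034. The share of the mitochondrially encoded mRNAs in the same totals lay above that of every control in the libraries labelled PNA2 at both times, as given above, and its part in these shares was not tested.

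Ratios between 2 genes of a library do not depend on its scale. At 48 h they were taken from the batch-adjusted values without a batch term, so differences between batches can enter them. The ratio of HSP90AA1 to HSP90AB1 was 1.04 ± 0.0552 in the 48 h controls, 1.14 ± 0.0365 in the libraries labelled PNA2 and 1.2 ± 0.0494 in siRNA, where it lay above every control. At 72 h it was 0.703 ± 0.0448 in the controls and 0.704 ± 0.0478 in the libraries labelled PNA2. The ratio of HSPH1 to HSPA8 at 72 h was 0.0993 ± 0.00475 in the controls and 0.0761 ± 0.0109 in the libraries labelled PNA2, and the groups did not overlap. At 48 h that ratio was 0.147 ± 0.0108 in the controls, 0.129 ± 0.0136 in the libraries labelled PNA2 and 0.149 ± 0.006 in siRNA, with overlap between all groups.

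The promoter element was found in genes that fell and in genes that did not. At 48 h in the libraries labelled PNA2, 3 of the 5 genes with it were called lower (CHORDC1, HSPA8 and HSP90AB1) and 2 of the 4 without it (HSPH1 and AHSA1). With so few genes these shares were not compared by a test. The 4 genes without it lack only the full match in the bases searched. A shorter form, GAA, any 2 bases, TTC, was present in 5.78% of promoters. A promoter of DNAJB1, counted as without the element, held it at 77 and 47 bases upstream.

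Transcripts of HSF1, the regulator that binds this element, did not pass the test against the controls. The log2 change was 0.14 (adjusted p = 0.189) in the libraries labelled PNA2, -0.20 (adjusted p = 0.0998) in siRNA and 0.083 (adjusted p = 0.573) at 72 h. The difference between the libraries labelled PNA2 and siRNA passed for HSF1, at 0.34 (adjusted p = 0.0097). The stress-inducible HSP70 genes HSPA1A and HSPA1B, near-identical copies whose reads can be shared between them, were at 2.00 or less in every 48 h control and not tested there. At 72 h HSPA1A changed by 0.39 (adjusted p = 0.0842) and HSPA1B by 0.22 (adjusted p = 0.118).

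Other chaperone families were followed by lists. In the libraries labelled PNA2 at 48 h, where 8.14% of all tested genes were called lower and 8.45% higher, of 16 other HSP90 co-chaperones 6 fell and 0 rose, with a list median of -0.26. SUGT1, which links HSP90 to immune receptors and ubiquitin ligases, fell by 0.46 (adjusted p = 0.00117), UNC45A, a myosin chaperone, fell by 0.35 (adjusted p = 0.00124), and PIH1D1, of the R2TP complex, fell by 0.32 (adjusted p = 0.00858). Of 9 HSP70 co-chaperones 4 fell, among them BAG1 (-0.30), the adaptor STIP1 (-0.27), which hands clients from HSP70 to HSP90, and the ubiquitin ligase STUB1 (-0.26). Of 14 J proteins 3 fell, namely DNAJA4 (-0.32), DNAJA2 (-0.30) and DNAJC2 (-0.30). Of 10 other mitochondrial chaperones HSPE1 alone fell, at -0.53 (adjusted p = 0.00982), and of 14 subunits of TRiC and prefoldin 2 fell, TCP1 (-0.28) and PFDN5. Of 15 chaperones of the endoplasmic reticulum 1 fell, CALR (-0.21), with a list median of -0.04. The shares called in the mitochondrial, endoplasmic reticulum and TRiC and prefoldin lists were near that background. In none of these lists did a gene rise. Without rescaling the 12 genes named by rule kept their direction, but none was called.

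In siRNA, 7.56% of all tested genes were called lower and 9.68% higher. Of the 10 other mitochondrial chaperones 5 fell, led by HSPE1 (-0.55), TRAP1, the mitochondrial HSP90 (-0.44), and GRPEL1, the exchange factor of mitochondrial HSP70 (-0.40), with a list median of -0.40. Of 14 TRiC and prefoldin subunits 5 fell, among them CCT8 (-0.43), CCT5 (-0.41) and TCP1 (-0.36). Of 14 J proteins 2 fell, DNAJC2 (-0.40) and DNAJB6 (-0.28), and of 9 HSP70 co-chaperones 2 fell, STIP1 (-0.31) and ST13 (-0.22), which helps to join HSP70 and HSP90. Of the listed genes, STIP1, DNAJC2, CDC37, PIH1D1, TCP1 and HSPE1 were called lower in both treatments, which share their controls. UNC45A was called lower in the libraries labelled PNA2 and higher in siRNA. The 16 HSP90 co-chaperones were divided, with 2 lower, CDC37 (-0.34) and PIH1D1 (-0.33), and 3 higher, FNIP1 (0.37), TSC1 (0.31) and UNC45A (0.25). Of the 15 endoplasmic reticulum chaperones 0 fell and 3 rose, DNAJC3 (0.55), SDF2L1 (0.31) and PDIA6 (0.23). In the HSP70 list 2 rose, HSPA2 (1.01) and the weakly expressed HSPA6, and of the small heat shock proteins HSPB11 rose (0.31). Called either way were 17.2% of all tested genes, and the shares in the J protein, HSP70 co-chaperone and endoplasmic reticulum lists were near that background. Without rescaling the 8 higher genes named by rule were still called and the 12 lower ones were not.

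Tested against each other, the libraries labelled PNA2 were called lower than siRNA in 12.5% of all genes and higher in 11.4%. Of 15 endoplasmic reticulum chaperones 7 were lower in the libraries labelled PNA2, led by SDF2L1 (-0.48), HYOU1 (-0.45) and HERPUD1 (-0.39). The HSP90 co-chaperones UNC45A (-0.60, adjusted p = 3.44e-05) and SUGT1 (-0.53) were lower too, as were DNAJA4 (-0.54) and HSPA2 (-0.70). Higher than in siRNA were 3 of 10 mitochondrial chaperones, the protease subunit CLPP (0.47), HSPA9, the mitochondrial HSP70 (0.42), and GRPEL1 (0.37). The prefoldin subunits PFDN4 (0.65) and PFDN1 (0.27), 2 of 14 in their list, were also higher, as were DNAJB6 (0.28) and HSPB1 (0.68). With HSF1 these are 8 higher and 7 lower genes named by rule, of which 2 and 5 were still called without rescaling. Called either way were 23.9% of all genes. The shares called in the HSP90 co-chaperone, J protein, HSP70 and TRiC and prefoldin lists did not exceed that background.

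At 72 h 11.7% of all tested genes were called lower and 12.1% higher. Of 16 other HSP90 co-chaperones 4 fell. SUGT1 fell by 0.44 (adjusted p = 0.0122), PTGES3, the p23 co-chaperone, fell by 0.38 (adjusted p = 0.0314) and CDC37L1 fell by 0.46 (adjusted p = 0.015). Of 14 J proteins 5 fell, led by DNAJC2 (-0.57), DNAJB14 (-0.51) and DNAJA4 (-0.51). Of 7 tested HSP70 and HSP110 genes HSPA4, an HSP110 relative of HSPH1, fell by 0.20 (adjusted p = 0.037), and of 9 HSP70 co-chaperones BAG5 fell by 0.29 (adjusted p = 0.0208). HSPB1, the small heat shock protein HSP27, rose by 1.08 (adjusted p = 0.00131), the largest change among the listed chaperones that were called at that time. Of 14 TRiC and prefoldin subunits PFDN5 rose (0.40), and of 10 mitochondrial chaperones CLPP rose (0.60). Of 15 endoplasmic reticulum chaperones 2 fell, HSP90B1, the HSP90 of that compartment (-0.47, adjusted p = 0.000481), and HYOU1 (-0.29). Called either way were 23.8% of all tested genes. The shares called in the HSP70 and HSP110, HSP70 co-chaperone, TRiC and prefoldin, mitochondrial and endoplasmic reticulum lists did not exceed that background.

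**Figure D4:**
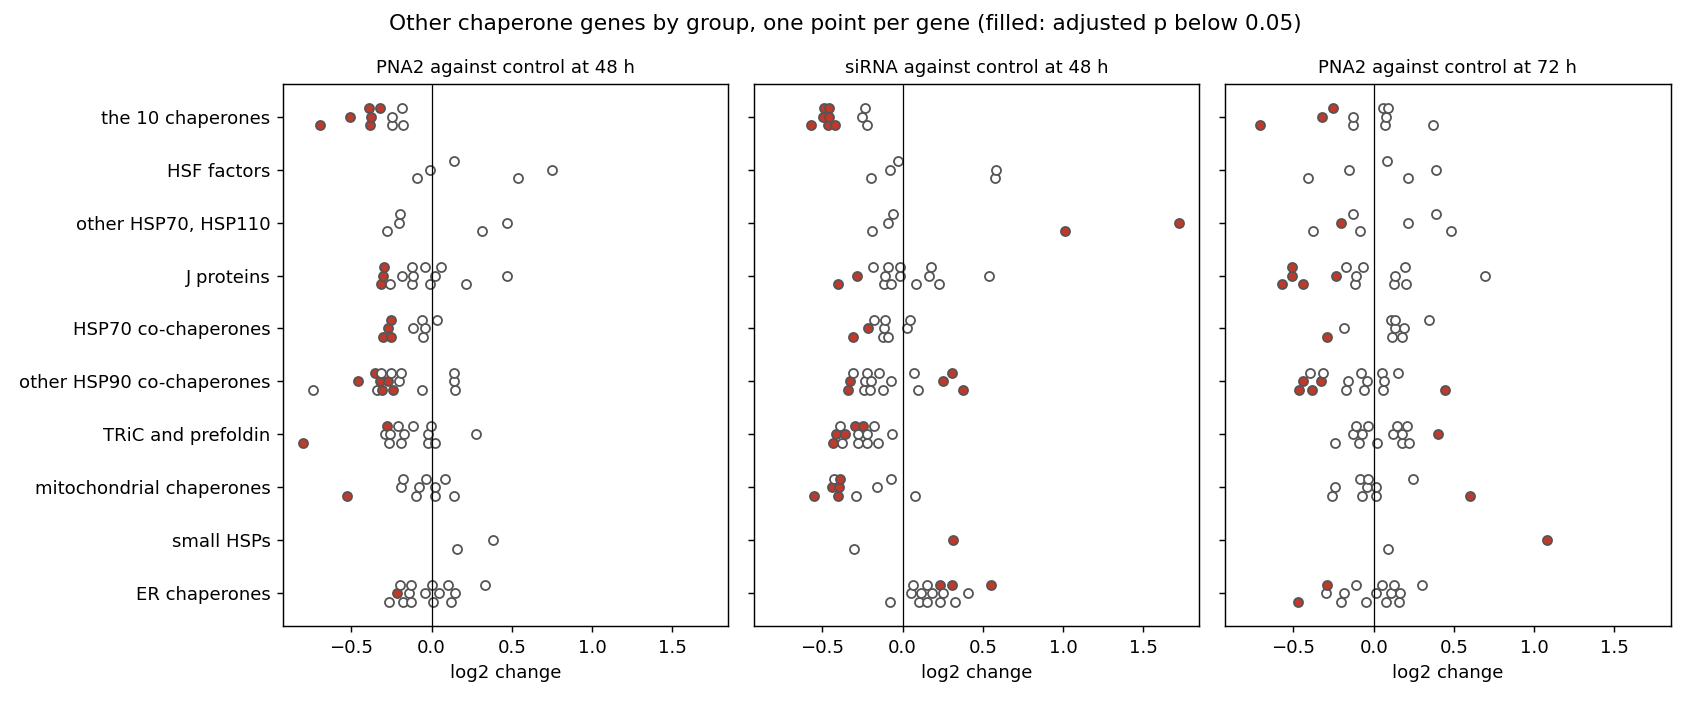
Log2 change (x axis) of the 10 genes and of the genes of 9 other chaperone lists (rows), 1 point per gene, in 3 comparisons; filled points passed an adjusted p of 0.05 by limma. With the library scale applied, the 10 genes lie below 0 in both 48 h panels, and they lie on both sides of it at 72 h.

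Reads from neighbours and copies could touch some of these values. The 48 h table also lists 55 processed pseudogenes of the 10 genes, 18 of them of HSPD1 and 17 of HSPA8. In any library their summed values came to at most 0.90% of the parent gene, the highest share being that of HSPD1. Exons on the opposite strand overlap HSP90AA1 (WDR20, 197 bases), DNAJB1 (TECR, 211 bases), CHORDC1 (a transcript of unknown status, 212 bases) and AHSA1 (VIPAS39, 83 bases), and 3 noncoding RNAs overlap FKBP4. With the strand setting unknown, reads of these overlaps cannot be told apart.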

How the data were processed

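The members, lists and tests were chosen with earlier results of these data known. The submitters' processing notes name GRCh38, DESeq2, HTSeq 0.11.0, SAMtools 1.7, HISAT2 2.2.1 and Trimmomatic. At 48 h the deposited values have another unit. Judged from the values alone, they are read counts that the authors adjusted per batch without depth scaling, not whole in 21877 of 61541 genes and below 0 in 5099. The deposited 72 h table holds signal, judged from its values to be read counts divided by a size factor per library (0.73 to 1.187), since the product with that factor was whole, within 0.01, for 100% of values. The 48 h batches are not in the labels. They were read from equal values among 6821 low genes, at 25.3% to 40.6% of genes within a batch and 0% between batches. Library totals of 8.22 M to 16.17 M bound the precision of counting, which is relatively lowest for genes with few reads.

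Negative values at 48 h became 0. After division by a TMM scale (edgeR 4.0.16), log2(value + 1) was fitted with limma 3.58.1 in R 4.3.3, with group and batch, over all 14 libraries. At 72 h log2(value + 1) was fitted with group alone. Changes on this scale understate those of low genes. A gene was tested when 4 libraries at 48 h, or 5 at 72 h, reached 10. Tests were two-sided, adjusted by Benjamini-Hochberg over all genes, at 0.05. At 72 h edgeR and DESeq2 1.42.0 on the recovered reads were alternatives. The script was tested on simulated data.

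All 10 members are named in each comparison. Of each list, up to 3 called genes per direction with a mean of 100 or more in a group are named, by size of change. The result for 1 called gene of the lists at 72 h is not reported here. PFDN5 at 48 h, CDC37 in the libraries labelled PNA2, HSPA6, HSF1, HSPA1A and HSPA1B fall outside that rule and were named after their values were seen. Positions and exon lengths came from GENCODE 29 and promoters from RefSeq. The 2 control columns sharing a header are unnumbered controls 6 and 7, after their column.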

Additional observations from a re-analysis of the deposited data

Results flagged for a closer look

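Among 50 groups of values of the 10 genes, 3 held a library that stood apart from the rest of its group by Dixon's criterion at 95%, which chance meets in about 1 in 20 groups. HSP90AB1 was lowest in PNA2 replicate 2 at 48 h, at 31712, against 39491 in the nearest library of the group. CHORDC1 was lowest in siRNA replicate 3 at 48 h, at 820.5, against 975 in the nearest. HSPA8 was lowest in control replicate 2 at 72 h, at 10552, against 11426 in the nearest. The changes under the same controls differed between the libraries labelled PNA2 and siRNA for CHORDC1 by -0.44 (adjusted p = 0.0116) and for HSPD1 by 0.39 (adjusted p = 0.0487), by limma. In that comparison 23.9% of all genes were called either way, so 2 of 10 is not above the background. By limma CHORDC1 was not called with aligned batches (adjusted p = 0.0684) or without rescaling (0.0632), nor HSPD1 within batch A (0.22). HSPD1 also lost the call with most single libraries left out.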

How the results depend on the processing

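Over all comparisons and alternatives, 630 of 760 values of the 10 genes kept their direction and their side of the threshold, 89 lost the call, 21 gained it and 20 turned direction. In the libraries labelled PNA2 at 48 h the 6 called genes became 1 without rescaling, with or without the batch term, 3 in batch B, 4 with only the groups compared, 2 with the replicate block and 8 under quantile normalization; leaving out 1 library gave 4 to 7. In siRNA the 7 became 0 without rescaling, with or without the batch term, 2 with the block, 5 under quantile normalization, 6 without the filter, 9 with batches aligned on their controls and 10 with only the groups compared, and 5 to 7 with 1 library left out. Between the treatments the 2 became 0 without rescaling, with or without the batch term, 4 under quantile normalization, and 1 without the batch term, with batches aligned on their controls, without the filter, in batch A or with the block, and 1 to 2 with 1 library left out. At 72 h the 3 became 6 under quantile normalization and 4 with TMM, edgeR or DESeq2, stayed at 3 with the block, and were 2 to 4 with 1 library left out. The cause of these differences was not tested. At 48 h the fits with the block also left out the unnumbered controls.

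No clear pairing by replicate number was seen. Same-numbered libraries deviated together with correlations of -0.04 to 0.11 at 72 h and -0.35 to 0.09 at 48 h. Some libraries, but not all, correlated best with their own number. With so few libraries per group these correlations cannot exclude a paired design. With the block, called genes went from 2344 to 831 in the libraries labelled PNA2 at 48 h and from 2437 to 971 in siRNA. Between the treatments they went from 3373 to 1795, and at 72 h from 2849 to 2769. At 48 h that fit also left out the unnumbered controls, so the block and the loss of those libraries cannot be told apart there.

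Directions turned as follows. In the libraries labelled PNA2 at 48 h, BAG3 was 0.0078 and HSPD1 0.015 without rescaling, with or without the batch term, BAG3 was 0.0041 in batch A and HSPD1 0.046 in batch B. In siRNA, ST13 was 0.035 without rescaling and batch term. Between the treatments, HSPA8 was -0.35 and HSP90AB1 -0.57 under quantile normalization, HSP90AA1 was 0.059 with aligned batches, and HSP90AB1 was -0.055 and FKBP4 -0.012 in batch A or with those groups alone. With 1 library left out, HSPH1 ran from -0.14 to 0.026, HSP90AA1 from -0.069 to 0.14 and AHSA1 from -0.23 to 0.014, each above 0 without PNA2 replicate 2. At 72 h HSPA8 was -0.25 under quantile normalization, and with 1 library left out DNAJB1 ran from -0.025 without PNA2 replicate 2 to 0.13. BAG3 had the lowest values of the 10 genes. How far depth limits its detection was not tested.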
